A study of Mus musculus with 8 samples.

Results

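The synaptic vesicle and SNARE genes comprise the synaptotagmins, synapsins, syntaxins, vesicle-associated membrane proteins, syntaxin-binding proteins, complexins, and the RIM, SV2 and UNC13 families, with Snap25, Snap29, Syp, Bsn and Pclo, chosen by gene symbol alone. The rule takes 68 of the 27179 genes counted, and 63 of these passed the filter on low counts, which left 16074 genes in all. Gene counts came from RNA sequencing of the cerebral cortex of 8 separate mouse embryos, and the comparison asks which of these transcripts differ when Taf8 is lost. The 4 Taf8-deleted embryos carried 1 null and 1 loxP-flanked allele (Taf8 -/lox), and the 4 Taf8-intact embryos were Taf8 +/+. The protein made from Taf8 is part of TFIID, a general factor that recognises core promoters for RNA polymerase II. The sources used here give neither the embryonic stage nor the recombinase and the cells in which it acts, and no unrecombined -/lox group or +/lox group was compared.

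At a synapse, neurotransmitter is released when a vesicle fuses with the presynaptic membrane. A SNARE protein on the vesicle (Vamp) zips together with SNARE proteins on the plasma membrane (syntaxin and Snap25), Munc18 and Munc13 proteins guide that assembly, complexins clamp and assist it, and synaptotagmins trigger fusion when calcium enters. In the embryonic cortex most neurons are still young and extending processes, and related SNAREs carry out membrane traffic in every cell type.

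Taf8 mRNA, which checks the labels, stood at 0.495 ± 0.187 CPM (a count scaled to a common, TMM-adjusted library size) in Taf8-deleted and at 32.6 ± 2.07 CPM in Taf8-intact libraries (SD, n = 4 each). Totals per library ran between 39590959 and 44788200 counts, and the bound for a gene with no count, 3 counts, was 0.0670 to 0.0758 CPM, for counting error only. Markers of cortical identity were present in every library, with summed levels of 2316 to 2434 CPM in Taf8-deleted and 3039 to 3173 CPM in Taf8-intact libraries. The numbers before the point in the animal labels were 456, 472, 477 and 486 for the deleted embryos. They were 408 for intact replicates 1, 2 and 3 and 409 for intact replicate 4. These numbers do not overlap between the groups, so whatever they mark cannot be told apart from the genotype. The labels do not say whether embryos that share a number are related.

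More of these genes fell than rose in Taf8-deleted cortex. Of the 63 members tested, 32 were lower (50.8%, beside 32.9% of all genes tested), 12 were higher (19.0%, beside 30.6% of all genes tested) and 19 did not pass an adjusted p of 0.05 (edgeR's quasi-likelihood test, Benjamini-Hochberg adjusted over all genes tested; every adjusted p below is of this kind unless stated). All 4 Taf8-deleted libraries lay below all 4 Taf8-intact libraries for 28 members (30.1% of all genes tested did so) and above them for 12 (27.6% of all genes tested), while the ranges overlapped for 23. The 32 and the 28 include Syt10, which passed the filter on low counts only through the Taf8-intact libraries, where it was higher. The median log2 fold change, Taf8-deleted over Taf8-intact, was -0.20 over the members, beside 0.00 over all genes tested. Most changes were under 1.5-fold. Of the 63 members 12 fell and 3 rose by at least that much, beside 1534 and 1773 of the 16074 genes tested. The extremes were -1.54 for Stxbp5l and 1.60 for Vamp1. In bulk tissue, fewer cells of a type and less RNA per cell cannot be told apart. Without the pair of deleted libraries with the most collagen mRNA the members lower and higher numbered 25 and 13, and without the library of each group with the most choroid plexus mRNA they numbered 28 and 12.

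**Figure D1:**
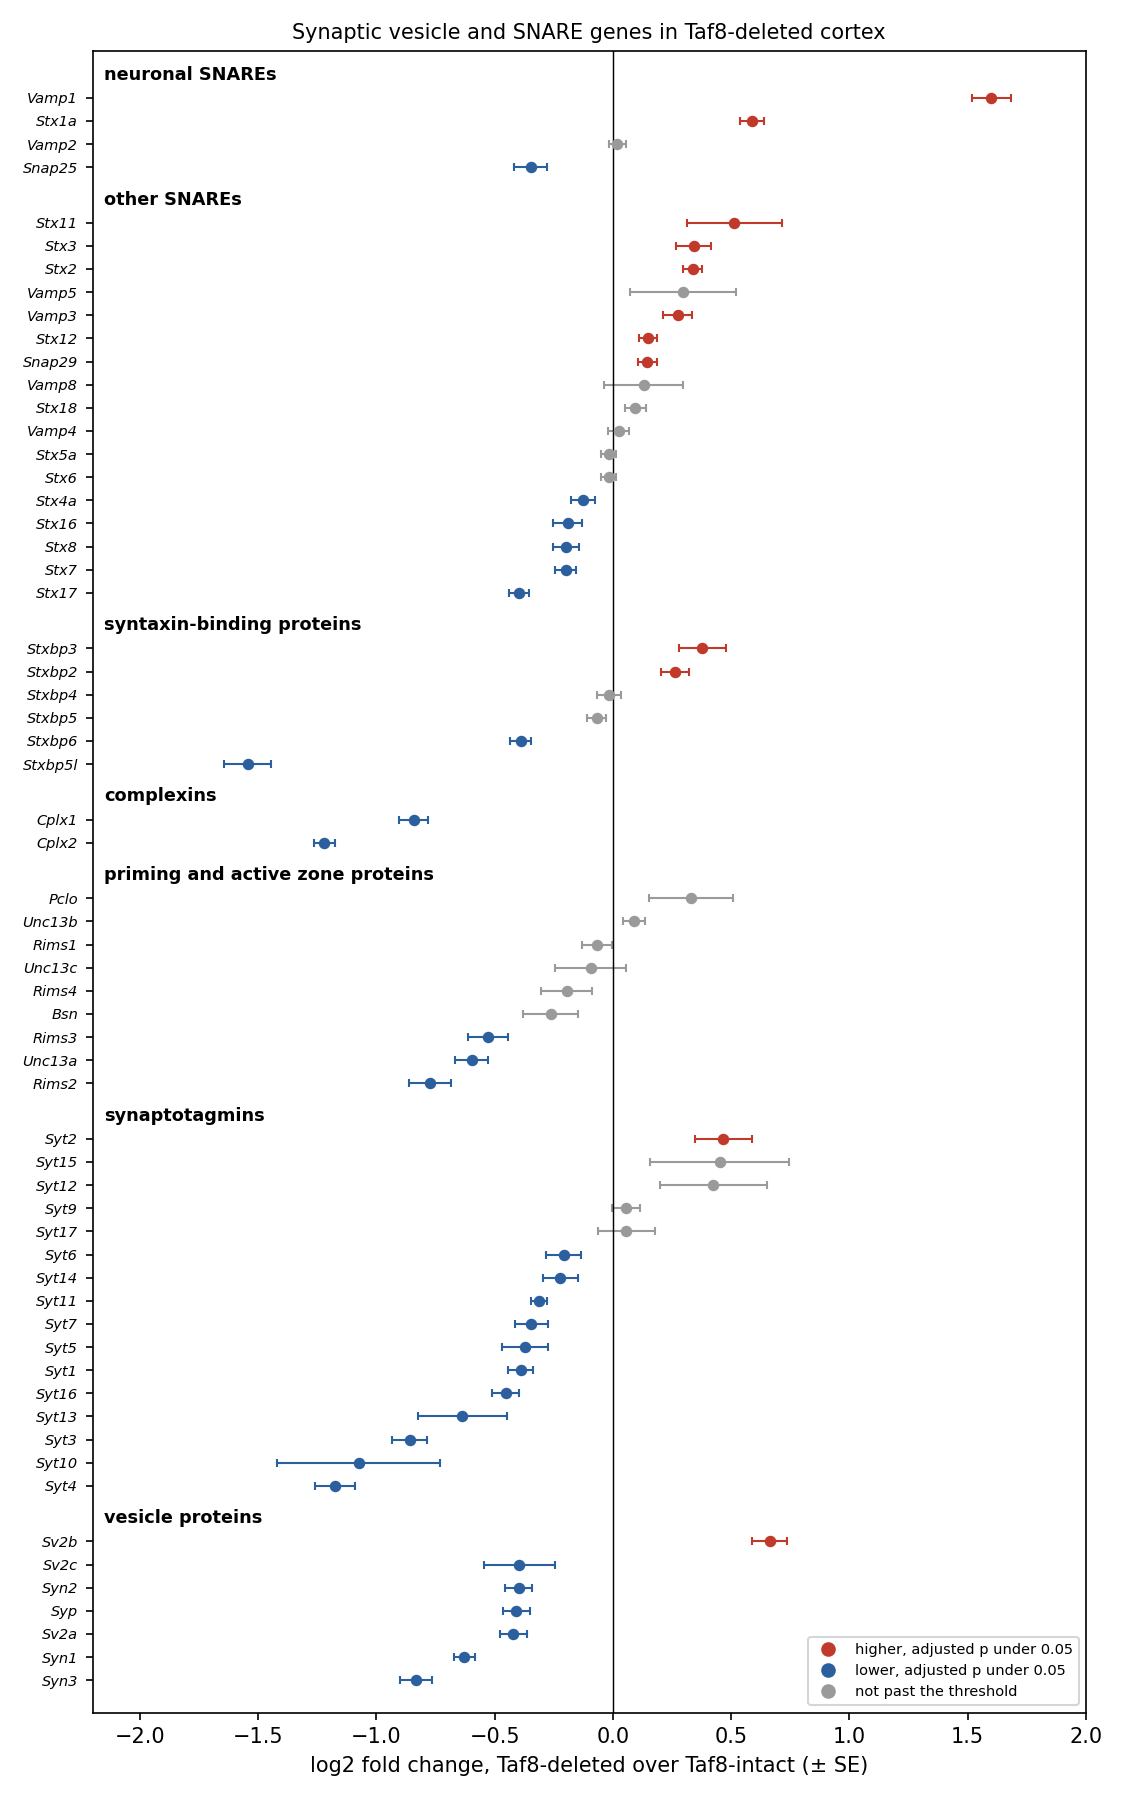
Log2 fold change of the members tested that are reported here, Taf8-deleted over Taf8-intact, with its standard error (SE, horizontal bars), grouped by role. Points are coloured by whether edgeR's adjusted p passed 0.05. The synaptotagmins, complexins and vesicle proteins lie mostly to the left of 0, while Vamp1, Sv2b and Stx1a lie farthest to the right.

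The core SNAREs of transmitter release moved in different directions. Vamp1, a vesicle SNARE best known from brainstem, spinal cord and motor synapses, had 18.6, 15.0, 16.1 and 17.1 CPM in Taf8-deleted libraries, against 5.60, 5.18, 6.03 and 5.19 CPM in Taf8-intact libraries. The groups lay far apart and the deleted level was 3.03-fold the intact one (log2 fold change 1.60 ± 0.08 SE, adjusted p = 1.44e-08). Its close relative Vamp2, the main vesicle SNARE of forebrain synapses, had 190.0, 189, 192 and 199 CPM in Taf8-deleted libraries, against 179, 191, 197 and 194 CPM in Taf8-intact libraries. These groups overlapped and the difference did not pass the test (log2 fold change 0.02 ± 0.04, adjusted p = 0.684). Among the plasma membrane partners, Stx1a had 64.2, 59.4, 66.4 and 64.4 CPM in Taf8-deleted libraries, against 41.5, 39.5, 45.7 and 42.7 CPM in Taf8-intact libraries. Every deleted library was above every intact one, and Stx1a rose (0.59 ± 0.05, adjusted p = 7.07e-07). Snap25, the partner of syntaxin in the SNARE bundle, had 69.2, 60.5, 65.6 and 74.6 CPM in Taf8-deleted libraries, against 80.1, 80.3, 94.6 and 88.3 CPM in Taf8-intact libraries. It fell without overlap (-0.35 ± 0.07, adjusted p = 0.00144).

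The sequences before the starts of Vamp1 and Stx1a, the SNARE genes that rose most, are shown because TFIID acts at core promoters. They are the 250 bases before the RefSeq start in GRCm38.p6, 5′ to 3′ on the gene's strand. Capitals mark matches, on either strand, to the GC box letters GGGCGG, to the letters CCAAT, to the TATA box letters TATAAA, to the letters TGACGTCA or to the letters TTCAGCACC. Vamp1 lies on the plus strand, with this stretch at chr6:125215331-125215580, and Stx1a on the plus strand, with its stretch at chr5:135023232-135023481.
Vamp1: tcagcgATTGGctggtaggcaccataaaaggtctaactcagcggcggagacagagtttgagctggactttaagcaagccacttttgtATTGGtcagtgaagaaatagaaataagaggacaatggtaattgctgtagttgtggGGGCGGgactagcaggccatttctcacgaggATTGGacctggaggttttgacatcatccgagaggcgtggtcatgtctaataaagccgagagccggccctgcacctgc
Stx1a: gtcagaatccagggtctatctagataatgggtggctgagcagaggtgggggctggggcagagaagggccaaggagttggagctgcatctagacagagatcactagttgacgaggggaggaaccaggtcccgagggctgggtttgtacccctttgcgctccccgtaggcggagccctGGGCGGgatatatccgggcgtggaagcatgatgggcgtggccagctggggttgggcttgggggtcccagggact
The Vamp1 stretch holds CCAAT in its reverse complement at 244, 163 and 77 bases before the start and GGGCGG at 108 bases, and the Stx1a stretch holds GGGCGG at 74 bases. Neither holds TATAAA.

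**Figure D2:**
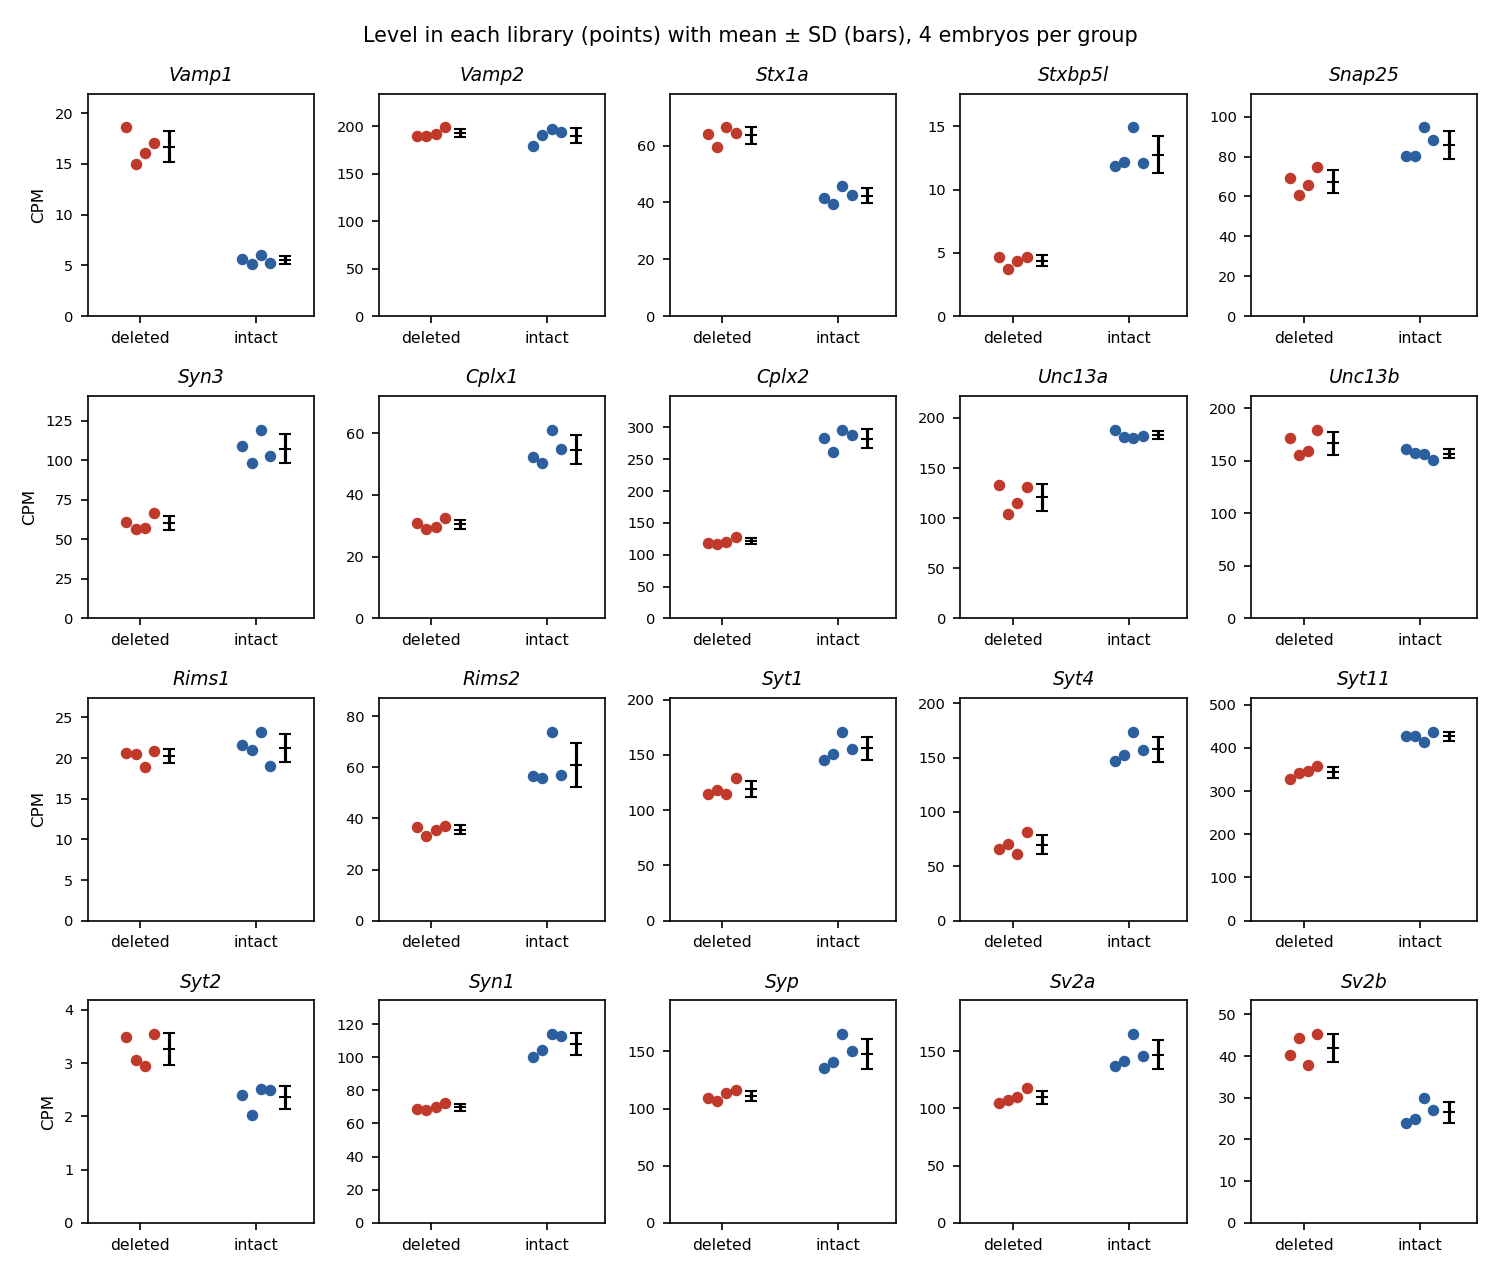
CPM of 20 members in each library (points, 4 embryos per group, deleted on the left) with the mean ± SD beside them, each panel with its own axis from 0. Vamp1, Stx1a, Sv2b and Syt2 are higher in all deleted libraries, Vamp2, Rims1 and Unc13b overlap between the groups, and the other 13 genes shown are lower in all deleted libraries.

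The SNAREs of general membrane traffic showed no common direction. Of 19 such genes 17 were tested: 6 rose (35.3%), 5 fell (29.4%) and 6 did not pass the test, shares near the 30.6% and 32.9% of all genes tested, with a median log2 fold change of 0.10. Those that rose were Stx2, Stx3, Vamp3 and Stx11, which act mostly in exocytosis at the plasma membrane outside synapses, and Stx12 and Snap29, of endosomal and autophagic traffic. Stx2 had 33.1, 33.6, 33.4 and 33.1 CPM in Taf8-deleted libraries, against 26.2, 27.6, 25.6 and 26.0 CPM in Taf8-intact libraries (0.34 ± 0.04, adjusted p = 1.38e-05). Stx3, a syntaxin also found at retinal ribbon synapses, had 12.4, 12.5, 13.8 and 12.6 CPM in Taf8-deleted libraries, against 9.51, 9.52, 11.5 and 9.98 CPM in Taf8-intact libraries (0.34 ± 0.07, adjusted p = 0.00154). In both genes the groups did not overlap. Among those that fell, Stx17, the autophagosomal syntaxin, had 22.5, 22.0, 22.5 and 23.5 CPM in Taf8-deleted libraries, against 29.9, 29.9, 29.3 and 29.8 CPM in Taf8-intact libraries (-0.40 ± 0.04, adjusted p = 4.00e-06). The late endosomal Stx7 had 96.3, 98.6, 96.2 and 106 CPM in Taf8-deleted libraries, against 108, 111, 121 and 116 CPM in Taf8-intact libraries (-0.20 ± 0.04, adjusted p = 0.00191). Stx8, Stx16 and Stx4a were the other 3 that fell, by 0.20, 0.19 and 0.13 on the log2 scale, which is the scale of every such value that follows. Stx8 lost its call when deleted replicate 1 and intact replicate 4 were both left out. Of these 11 calls, 3 changed when single libraries were left out. Stx4a passed in none of the 8 fits that each left out 1 library (adjusted p 0.0581 to 0.155), Stx11 passed only without deleted replicate 1 (0.0234, otherwise up to 0.092), and Stx16 lost its call without deleted replicate 3 or intact replicate 2 (up to 0.0565) and stood at -0.12 without deleted replicate 2. Stx6, Stx5a, Vamp4, Stx18, Vamp8 and Vamp5 did not pass, with log2 fold changes of -0.02 to 0.30, but Stx18 did with library totals alone, with upper-quartile factors and with a filter at CPM above 1. However, 32.3% of the exonic bases of Stx18 overlap Gm42858 and Nsg1, and unstranded reads there can come from any of these genes. Stx19 had at most 9 counts in a library and Vamp7 was listed at 0 in all 8 libraries, so neither was tested. Whether the counting annotation covered Vamp7 is not known here, so its 0 does not show that it was not expressed.

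Of the genes in these SNARE groups that rose, TATAAA was found before a listed start of Stx2, which has 2 listed starts, and of Stx3, which has 1. Stx3 is shown here with the 250 bases before its listed RefSeq start. Its match is on the opposite strand from the gene (written TTTATA here), 85 bases before the start. Stx3 lies on the minus strand, with this stretch at chr19:11819404-11819653. The stretch lies inside the RefSeq span of the gene (11775118 to 11821569), so the listed start is not its outermost end. Bases before that outer end were not searched.
Stx3: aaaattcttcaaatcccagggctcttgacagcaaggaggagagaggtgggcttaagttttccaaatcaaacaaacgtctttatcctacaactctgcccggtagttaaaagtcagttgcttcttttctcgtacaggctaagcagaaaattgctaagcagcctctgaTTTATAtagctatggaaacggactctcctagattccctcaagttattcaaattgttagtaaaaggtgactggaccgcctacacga

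The syntaxin-binding proteins included the largest fall of all members. Stxbp5l, a tomosyn that competes for syntaxin, had 4.71, 3.77, 4.38 and 4.66 CPM in Taf8-deleted libraries, against 11.8, 12.2, 14.9 and 12.1 CPM in Taf8-intact libraries. It fell to 0.343 of the intact level (-1.54 ± 0.10, adjusted p = 7.78e-08), while the other tomosyn, Stxbp5, did not pass (-0.07 ± 0.04, adjusted p = 0.163). Stxbp2 and Stxbp3, Munc18 proteins that act mainly outside neurons, rose. Stxbp2 had 31.8, 26.5, 29.9 and 30.2 CPM in Taf8-deleted libraries, against 25.3, 24.1, 26.1 and 23.3 CPM in Taf8-intact libraries (0.26 ± 0.06, adjusted p = 0.00221). Stxbp3 had 12.2, 11.0, 11.4 and 10.2 CPM in Taf8-deleted libraries, against 9.32, 9.87, 7.10 and 8.13 CPM in Taf8-intact libraries (0.38 ± 0.10, adjusted p = 0.00539). The groups did not overlap in either gene. Stxbp6 fell by 0.39, and Stxbp4 was at -0.01 and did not pass.

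Both complexins with measurable counts fell. Cplx2, the more abundant one, had 119, 117, 121 and 128 CPM in Taf8-deleted libraries, against 283, 262, 296 and 288 CPM in Taf8-intact libraries. Every deleted library was under every intact one, at 0.429 of the intact level (-1.22 ± 0.04, adjusted p = 1.21e-09). Cplx1 had 30.8, 29.0, 29.7 and 32.4 CPM in Taf8-deleted libraries, against 52.3, 50.4, 61.1 and 54.7 CPM in Taf8-intact libraries, also without overlap (-0.84 ± 0.06, adjusted p = 1.87e-07). Cplx3 and Cplx4, known from retinal ribbon synapses, had at most 2 counts in any library and were not tested. For Cplx2, the member with the smallest adjusted p, the 250 bases before the listed start lie on the plus strand at chr13:54302306-54302555. They hold none of the 5 motifs. However, they lie inside the RefSeq span of the gene, which begins at 54301964, and bases before that outer end were not searched.
Cplx2: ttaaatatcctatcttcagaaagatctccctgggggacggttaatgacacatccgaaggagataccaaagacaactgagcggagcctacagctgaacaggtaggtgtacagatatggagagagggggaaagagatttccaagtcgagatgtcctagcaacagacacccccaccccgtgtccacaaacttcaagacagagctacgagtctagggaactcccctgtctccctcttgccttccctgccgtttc

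Among the 9 priming and active zone proteins, 3 fell (33.3%, near the 32.9% of all genes tested), none rose and 6 did not pass the test. Unc13a, the Munc13 protein that primes most cortical vesicles, had 133, 104, 115 and 131 CPM in Taf8-deleted libraries, against 188, 181, 179.8 and 182 CPM in Taf8-intact libraries. It fell without overlap (-0.60 ± 0.07, adjusted p = 2.24e-05), whereas Unc13b was at 0.09 ± 0.05 and did not pass (adjusted p = 0.114; 0.032 without deleted replicate 2), though it did with library totals alone, with upper-quartile factors and with a filter at CPM above 1. Rims1 and Rims2 encode the active zone scaffolds that hold calcium channels near vesicles. Rims2 had 36.6, 33.0, 35.7 and 37.0 CPM in Taf8-deleted libraries, against 56.6, 55.8, 73.9 and 57.1 CPM in Taf8-intact libraries, and fell (-0.77 ± 0.09, adjusted p = 3.53e-05). Rims1 had 20.7, 20.5, 18.9 and 20.8 CPM in Taf8-deleted libraries, against 21.6, 21.0, 23.2 and 19.0 CPM in Taf8-intact libraries, with overlap (-0.07 ± 0.06, adjusted p = 0.364). The short form gene Rims3 fell by 0.53, and Rims4 was at -0.20 and did not pass (adjusted p = 0.137; 0.0469 without intact replicate 2). Unc13c, known mainly from cerebellum, was at -0.09 and did not pass either.

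The giant active zone scaffolds Bsn and Pclo varied between embryos of the same genotype. Bsn had 175, 129, 149 and 169 CPM in Taf8-deleted libraries, against 177, 179.9, 221 and 168 CPM in Taf8-intact libraries. The ranges overlapped and the difference did not pass (-0.26 ± 0.12, adjusted p = 0.0805). Pclo had 179, 109, 133 and 168 CPM in Taf8-deleted libraries, against 104, 122, 138 and 105 CPM in Taf8-intact libraries, and did not pass either (0.33 ± 0.18, adjusted p = 0.147). Both were lowest among deleted libraries in deleted replicate 2. Without that library Pclo stood at 0.46 with an adjusted p of 0.0225, and without deleted replicates 2 and 3 at 0.57 with an adjusted p of 0.00514. Bsn passed only without deleted replicate 1 and intact replicate 4 (-0.36, adjusted p = 0.034).

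Most of the synaptotagmins tested fell, though the calls of Syt6, Syt10 and Syt14 depended on single libraries, as given below. Of 17 genes 16 were tested: 11 fell (68.8%, beside 32.9% of all genes tested) and only Syt2 rose (6.25%, beside 30.6% of all genes tested). The 11 include Syt10, which the filter kept only through the Taf8-intact libraries. Syt9, Syt12, Syt15 and Syt17 did not pass, and the median log2 fold change was -0.33 over those tested. Syt1, the calcium sensor of fast release in forebrain, had 114, 118, 114 and 129 CPM in Taf8-deleted libraries, against 145, 151, 171 and 156 CPM in Taf8-intact libraries (-0.39 ± 0.05, adjusted p = 5.69e-05). Syt4, a synaptotagmin that lacks a normal calcium response in mammals, had 66.2, 70.2, 61.4 and 81.6 CPM in Taf8-deleted libraries, against 147, 152, 174 and 157 CPM in Taf8-intact libraries. It fell to 0.443 of the intact level (-1.17 ± 0.08, adjusted p = 1.29e-06). However, 14.5% of its exonic bases overlap the gene Gm26658, and unstranded reads there can come from either gene. Syt3, a high-affinity calcium sensor, had 9.79, 10.9, 10.6 and 9.90 CPM in Taf8-deleted libraries, against 17.7, 17.1, 21.2 and 18.8 CPM in Taf8-intact libraries (-0.86 ± 0.07, adjusted p = 9.31e-07). Syt2, the fast sensor of brainstem and spinal synapses, had 3.48, 3.06, 2.94 and 3.54 CPM in Taf8-deleted libraries, against 2.39, 2.03, 2.51 and 2.49 CPM in Taf8-intact libraries. Its rise was without overlap (0.47 ± 0.12, adjusted p = 0.005).

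The other 8 synaptotagmins that fell ranged from Syt6 (-0.21) to Syt10 (-1.08). Syt11, which does not bind calcium, had the highest length-scaled level of all members in intact cortex and fell by 0.31 (adjusted p = 6.53e-06). Syt7, a sensor of slow and asynchronous release, fell by 0.35, Syt5 by 0.37, Syt16 by 0.45, Syt13 by 0.64 and Syt14 by 0.22. Syt10, a sensor of peptide secretion in olfactory neurons, was near the limit of measurement at 0.174 ± 0.0394 CPM in Taf8-deleted and 0.367 ± 0.155 CPM in Taf8-intact libraries, and it was the only member to reach the filter's minimum in 1 group alone. The size of the fall of Syt13 depended on intact replicate 2, which had 23.2 CPM beside at most 15.1 CPM in the other intact libraries. Without it the log2 fold change was -0.40 (adjusted p = 0.00298). Its call was lost without deleted replicates 2 and 3, and without deleted replicate 1 and intact replicate 4. Syt5 also lost its call without deleted replicate 1 and intact replicate 4. The call of Syt10 was lost without intact replicate 4 (adjusted p = 0.0661). Syt14 lost its call without deleted replicate 2 or 3 or intact replicate 3 or 4 (adjusted p up to 0.0715). Syt6 lost it without any 1 of deleted replicates 2, 3 and 4 and intact replicates 1 and 3 (up to 0.0792). Syt12 did not pass (0.43, adjusted p = 0.117), except without deleted replicate 4 (0.0393), and 17.2% of its exonic bases overlap A930001C03Rik. Syt8 was listed at 0 in all 8 libraries, with the same doubt as for Vamp7.

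Of the 7 vesicle proteins 6 fell (85.7%, beside 32.9% of all genes tested) and 1 rose (14.3%, beside 30.6% of all genes tested). Syn1, a synapsin that tethers vesicles in the reserve pool, had 68.6, 68.0, 69.9 and 72.6 CPM in Taf8-deleted libraries, against 100.1, 104, 114 and 113 CPM in Taf8-intact libraries (-0.63 ± 0.04, adjusted p = 1.66e-07). Syn3, the synapsin of developing neurons, had 60.7, 56.6, 57.0 and 66.5 CPM in Taf8-deleted libraries, against 109, 98.1, 119 and 102 CPM in Taf8-intact libraries (-0.83 ± 0.07, adjusted p = 1.56e-06), with 14.1% of its exonic bases shared with Timp3. Syn2 fell by 0.40, and the groups did not overlap for any of the synapsins. Syp, the membrane protein synaptophysin, had 109.6, 106, 113 and 116 CPM in Taf8-deleted libraries, against 135, 141, 165 and 151 CPM in Taf8-intact libraries (-0.41 ± 0.06, adjusted p = 6.47e-05). Of its exonic bases 16.8% overlap Gm14703.

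Sv2a, the vesicle glycoprotein that binds the drug levetiracetam, had 104, 108, 109.6 and 118 CPM in Taf8-deleted libraries, against 137, 141, 165 and 145 CPM in Taf8-intact libraries (-0.42 ± 0.06, adjusted p = 5.73e-05). Its relative Sv2b went the other way. Sv2b had 40.2, 44.2, 37.9 and 45.2 CPM in Taf8-deleted libraries, against 24.0, 25.0, 29.8 and 27.0 CPM in Taf8-intact libraries, at 1.58-fold the intact level (0.66 ± 0.07, adjusted p = 1.27e-05). Sv2c, prominent in basal ganglia, fell by 0.39 (adjusted p = 0.038). That call was lost without any 1 of deleted replicates 2, 3 and 4 and intact replicates 2 and 3 (adjusted p up to 0.119). The 250 bases before the Syn1 start lie on the minus strand at chrX:20920919-20921168. They are shown because they hold TGACGTCA, the cyclic AMP response element, 159 bases before the start and TTCAGCACC, a core of the element bound by the neuronal gene repressor REST, 232 bases before it.
Syn1: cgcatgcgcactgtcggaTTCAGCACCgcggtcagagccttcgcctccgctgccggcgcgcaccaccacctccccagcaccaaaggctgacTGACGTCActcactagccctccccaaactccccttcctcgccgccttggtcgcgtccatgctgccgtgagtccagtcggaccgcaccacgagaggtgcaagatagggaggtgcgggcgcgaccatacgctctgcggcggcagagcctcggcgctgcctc

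Ratios between relatives differed between the groups. The log2 ratio of CPM within a library (prior count 2) was compared for 12 pairs of related members by an exact two-sided permutation test over the 70 assignments of 4 and 4 libraries. Of these, 10 are described. In all 10 the groups did not overlap, and each p was 0.02857, the smallest that this design allows, also after adjustment over the 12 pairs. The pairs were chosen with earlier results known, so these p-values are no independent support and the ratios are a description. The ratio was higher in Taf8-deleted libraries in 8 pairs and lower in 2. The Vamp1 to Vamp2 log2 ratio was -3.35, -3.65, -3.58 and -3.53 in Taf8-deleted libraries, against -4.99, -5.19, -5.01 and -5.21 in Taf8-intact libraries, a difference of 1.57. Every deleted library was above every intact one, yet Vamp1 was the minor of the pair in all. Per kilobase of the deposited gene length, Vamp1 made up 5.61 ± 0.487% of the sum of both in Taf8-deleted and 1.95 ± 0.154% in Taf8-intact libraries (SD, n = 4 each). Sv2b made up 20.8 ± 1.16% of Sv2a plus Sv2b in Taf8-deleted and 11.0 ± 0.244% in Taf8-intact libraries. Unc13b made up 63.3 ± 1.37% of Unc13a plus Unc13b in Taf8-deleted and 51.6 ± 0.578% in Taf8-intact libraries.

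**Figure D3:**
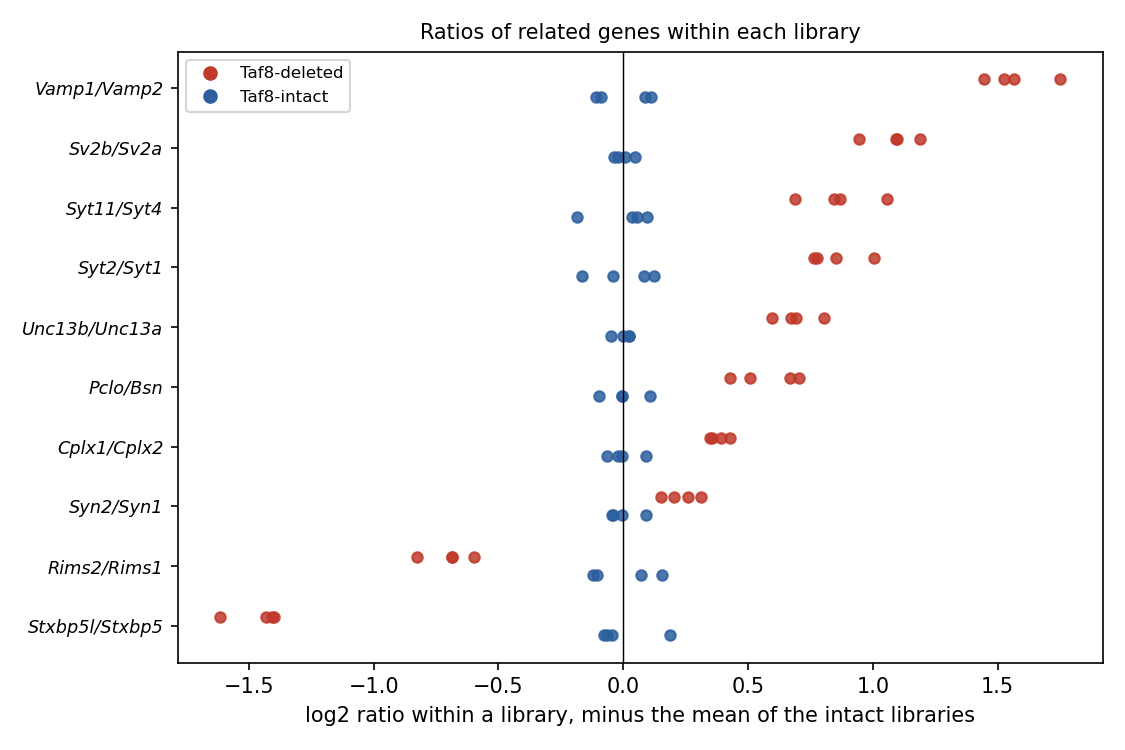
Log2 ratio of 10 pairs of related members in each library, minus the mean of the intact libraries (horizontal axis), with Taf8-deleted and Taf8-intact libraries as separate points. The groups do not overlap in any pair shown, from -1.46 for Stxbp5l over Stxbp5 to 1.57 for Vamp1 over Vamp2.

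Among the other pairs described, the log2 ratio differed by 1.08 for Sv2b over Sv2a, 0.86 for Syt11 over Syt4, 0.85 for Syt2 over Syt1 and 0.69 for Unc13b over Unc13a, all higher in Taf8-deleted libraries. Smaller differences in the same direction were 0.58 for Pclo over Bsn, 0.38 for Cplx1 over Cplx2 and 0.23 for Syn2 over Syn1. The Pclo to Bsn ratio separated the groups although neither gene passed the test alone. Both scaffolds were lowest in deleted replicates 2 and 3 among the deleted libraries. The ratio was lower in Taf8-deleted libraries by 1.46 for Stxbp5l over Stxbp5 and by 0.70 for Rims2 over Rims1.

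On the length-scaled level (RPKM, CPM per kilobase of the gene length in the deposited table), the most abundant members differed between the groups. The highest mean level in Taf8-deleted libraries was that of Vamp2, at 89.0 ± 1.96 RPKM, with Stx12 at 79.6 ± 2.40 RPKM and Syt11 at 75.1 ± 2.64 RPKM after it. In Taf8-intact libraries Syt11 came first at 93.4 ± 2.11 RPKM, Vamp2 was at 87.9 ± 3.51 RPKM and Stx12 was at 71.9 ± 3.05 RPKM. Intact library values of Syt11 (90.5 to 95.6 RPKM) and Vamp2 (82.8 to 90.8 RPKM) overlapped. Cplx2 was at 24.6 ± 0.952 RPKM in Taf8-deleted and 57.3 ± 2.99 RPKM in Taf8-intact libraries. For 18 members, Snap25, Vamp1, Syp and Unc13b among them, that length was under 50% of the exonic length in GENCODE, so their RPKM and per-kilobase shares are the less certain ones.

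The promoters of the members shared little. RefSeq windows of 300 bases, 250 before and 50 after a start, were matched for 52 of the 68 members. A listed start can lie inside the gene span, as for Stx3 and Cplx2. TATAAA, on either strand, was in a window of 3 of the 11 members that rose (Stx2, Stx3 and Sv2b), of 0 of the 23 that fell and of 0 of the 15 that did not pass, beside 9.02% of the 12145 genes tested that have a window, to which the shares below also refer. Stx2 and Sv2b have several listed starts, and only Stx2 had a match on the gene's own strand, 137 bases before the start. GGGCGG was in 76.9% of the 52 members, in 72.7% of the members that rose and in 82.6% of those that fell, beside 66.9% of those genes. CCAAT was in 45.5% and 26.1%, beside 42.7%. TGACGTCA was in 1 member that rose (Stxbp3) and 1 that fell (Syn1), beside 3.47% of those genes. TTCAGCACC, searched for after the Syn1 sequence had been seen, was in Syn1 and Unc13a, beside 0.552% of those genes. A match is a string of letters and does not show that a factor binds.

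Other presynaptic genes lie outside the symbol rule. In 4 lists with 103 such genes, 102 were tested, of which 47 fell (46.1%, beside 32.9% of all genes tested) and 28 rose (27.5%, near the 30.6% of all genes tested). Among active zone proteins and Rab3 partners 16 of 25 fell and 3 rose, with a median log2 fold change of -0.19. Rph3a, a Rab3 effector, fell by 1.70 and the liprin Ppfia4 by 0.85, whereas Rimbp3 and Tspoap1, of the RIM-binding protein family, rose by 1.52 and 0.56. Among vesicle membrane and transmitter loading genes 11 of 24 fell and 9 rose (median -0.11). Slc17a7, a vesicular glutamate transporter, fell by 1.32 and the synaptophysin-like Sypl2 by 2.04, whereas Atp6v1g2, a subunit of the vesicle proton pump, rose by 0.36 and Sypl by 0.29.

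Among vesicle endocytosis genes 12 of 26 fell and 6 rose (median -0.09). Dnm1, the neuronal dynamin, fell by 0.55 and Ston1 by 1.27, whereas Synj1 and Sh3gl1 rose by 0.24 and 0.22. Among the fusion factors and remaining SNAREs 10 of 27 tested rose (37.0%, near the 30.6% of all genes tested) and 8 fell (29.6%, near the 32.9% of all genes tested), with a median of 0.05. Nsf, the ATPase that takes spent SNARE bundles apart, rose by 0.31 and Sec22a by 0.39, whereas Bnip1 fell by 1.01 and Sytl5 by 1.24.

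Markers of several cell types moved with the genotype, and their counts stand beside 30.6% higher and 32.9% lower over all genes tested. Of 18 markers of postmitotic neurons 15 fell and 1 (Nefm) rose, with a median log2 fold change of -0.39 and a summed level of 8354 to 9111 CPM in Taf8-deleted and 10645 to 11790 CPM in Taf8-intact libraries. Of 14 interneuron markers 9 fell and 3 rose (771 to 844 CPM in Taf8-deleted, 1010 to 1121 CPM in Taf8-intact libraries). Of 15 radial glia and progenitor markers 7 rose and 3 fell (5062 to 5304 CPM in Taf8-deleted, 4000 to 4610 CPM in Taf8-intact libraries). Of 16 endothelial, pericyte and meningeal markers 13 rose and none fell (303 to 513 CPM in Taf8-deleted, 242 to 289.9 CPM in Taf8-intact libraries). Of 14 blood and microglia markers 6 rose and 1 fell (206 to 267 CPM in Taf8-deleted, 169.6 to 215 CPM in Taf8-intact libraries). None of 8 choroid plexus markers passed, and their sum was 15.2 to 953 CPM in Taf8-deleted and 15.3 to 310.3 CPM in Taf8-intact libraries. Of 10 cortex identity markers 7 fell and 2 rose. No marker was at 0 in every library. The members outside the general-traffic SNAREs had a median of -0.35 over the 46 tested, and 27 of them fell, beside a median of -0.39 over the neuron markers. The part of the makeup of the tissue in these results was not tested.

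**Figure D4:**
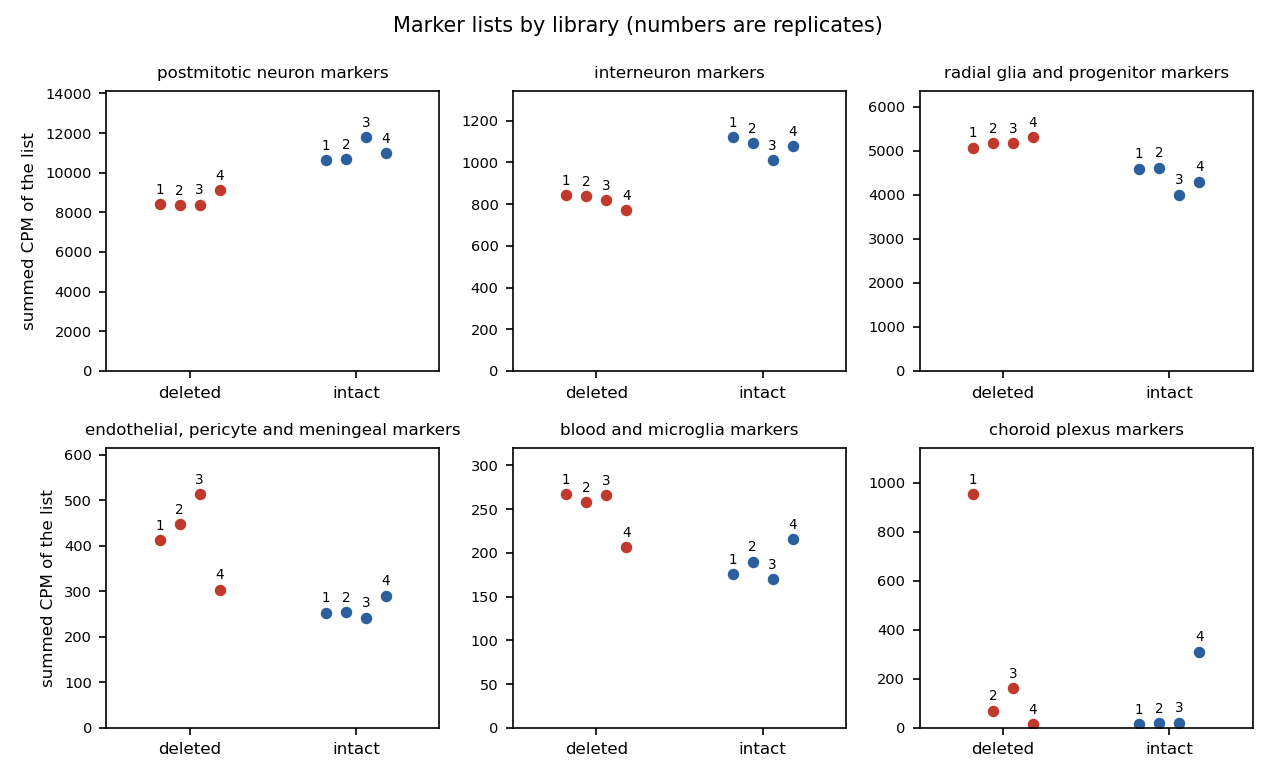
Summed CPM of 6 lists of cell type markers in each library (numbers are replicates, deleted on the left), each panel with its own axis from 0. Neuron sums are lower and radial glia sums higher in all deleted libraries, and choroid plexus sums are high in deleted replicate 1 (953 CPM) and intact replicate 4.

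Within the intact group, 1 library stood out for these genes. Intact replicate 3 had the highest intact level for 43 of 63 members tested (68.3%, beside 32.2% of all genes tested), among them 24 of the 32 that fell, and it also had the highest neuron marker sum and the lowest radial glia sum of the intact libraries. Deleted replicate 4 had the highest deleted level for 29 members (46.0%, beside 29.0% of all genes tested). Without intact replicate 3, 28 members were lower and 11 higher, and without deleted replicate 4, 29 were lower and 12 higher.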

How the data were processed

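The authors deposited whole-number counts per gene, not normalised, as a matrix with a gene length column and 1 column per embryo, and 8 per-embryo lists identical to its columns. Per the labels, polyadenylated RNA was made into unstranded libraries. The submitters' processing notes name bcl2fastq 1.8.4, Subread 1.5.0, featureCounts and build mm10, without their roles. The sources used here give neither the annotation nor the treatment of multi-mapping reads. Paralogs and genes with overlapping exons can therefore share reads (18 of 67 members matched in GENCODE M21 overlap another gene's exons, counted on either strand). Numeric identifiers were matched to RefSeq GRCm38.p6 symbols (25275 matched, 1904 did not and held 0.490% to 1.64% of counts).

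Counts were analysed in R 4.3.3 with edgeR 4.0.16 (filterByExpr, TMM factors, quasi-likelihood test with robust estimation, no covariates, Benjamini-Hochberg adjustment over all 16074 genes tested, threshold 0.05). The fit was also run on simulated counts with 200 changed genes, far fewer than were called here. That run therefore cannot show how the scaling behaves in these data. The biological coefficient of variation was 7.57%. The SE came from the F statistic and the fold change. CPM use TMM-scaled totals, and RPKM were computed here from CPM and the deposited length. Members and lists were chosen with earlier results of these data known, as were the pairs. Named with all library values were 15 genes of the release machinery and the 2 largest rises and falls per role (mean log2 CPM of at least 1). In each list the text names up to 2 called genes per direction by the same minimum. Other members are named to account for all 68, and values of some members and pairs are not reported here. Replicates were separate embryos, and replicates differed by more than counting noise (chi-square per gene 4.22 to 14.6). Alternatives were median-ratio or upper-quartile size factors or plain library totals, no filter or CPM above 1 in 4 libraries, DESeq2 1.42.0, limma 3.58.1 voom, a replicate block, a test against a 1.5-fold change, a prior count of 0.5 for ratios and leaving out each library. Leaving out 2 libraries, or identifiers without a symbol, was chosen after seeing the data.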

Additional observations from a re-analysis of the deposited data

Results flagged for a closer look

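In 5 of 74 groups of 4 libraries checked, over named members and pairs, 1 library lay far from the other 3 by Dixon's gap criterion, and chance flags about 1 in 20 groups. Of these, 3 concerned intact replicate 3. It had 14.9 CPM of Stxbp5l, beside 11.8 to 12.2 CPM in the other intact libraries. It had 73.9 CPM of Rims2, beside 55.8 to 57.1 CPM. Its log2 ratio of Stxbp5l to Stxbp5 was -1.872, beside -2.137 to -2.103. In the Taf8-deleted group, replicate 3 had 13.8 CPM of Stx3, beside 12.4 to 12.6 CPM in the other deleted libraries, and replicate 2 had a log2 ratio of Stxbp5l to Stxbp5 of -3.675, beside -3.493 to -3.46. In each case both groups remained separate.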

How the results depend on the processing

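Counts of members called lower and higher lay between 25 and 32 and between 11 and 14 in the alternatives run, apart from the test against a 1.5-fold change, which called 7 lower and 1 higher, 816 and 932 of all genes, and 10 and 2 of the related lists. There 8 of the 44 calls were kept, by construction, as it asks for a larger change. In the other alternatives 36 to 44 were kept, and Stx4a and Stx11 were lost most often. With library totals alone the share of higher calls among all genes was 57.17% in place of 48.18%, the median log2 fold change shifted by 0.062, and 27 members were lower and 14 higher. With DESeq2 30 were lower and 11 higher. Replicate numbers were shared between the groups as numbers only. Same-numbered libraries deviated with correlations of -0.229, 0.00519, -0.000469 and -0.455, and no library correlated best with the library of its own number. With a replicate block, 30 members were lower and 11 higher, against 32 and 12.

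Leaving out 1 library at a time, 27 to 31 members were lower and 11 to 13 higher. Vamp2 ranged from -0.012 (without intact replicate 1, where it reversed, adjusted p = 0.78) to 0.041, never past the threshold. The Syn2 over Syn1 ratio ranged from 0.204 to 0.261, and its adjusted p reached 0.0571 without deleted replicate 2 (exact permutation test). The other 11 pairs stayed past the threshold. The cause of the other lost calls was not tested. Counting error is widest for members below 1 CPM on average (Stx11, Vamp5, Syt10, Syt12 and Syt15).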
